A study of Homo sapiens with 12 samples.

Results

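Lysosomal hydrolases, lysosomal membrane proteins and the receptors that sort hydrolases to the lysosome were examined in 2 human pancreatic cancer cell lines in which the metabolic enzyme GOT1 had been knocked down. The group held 44 genes, chosen by name from general knowledge of the lysosome, with earlier results of these data known, out of 58721 genes in the expression tables. It comprised 11 glycosidases, 5 sulfatases, 9 lipid hydrolases with their activators and carriers, 4 other hydrolases (a pair of proteases, a nuclease and a phosphatase), 10 membrane proteins and 5 genes of mannose 6-phosphate sorting. All 44 were found in the tables.

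RNA-seq was performed on Pa-Tu-8902 (Tu8902 in the labels) and MIA PaCa-2 (Mia in the labels), both established lines from human pancreatic ductal adenocarcinoma. Both lines stably carried an shRNA against GOT1 that is switched on by doxycycline (dox), a design known as iDox-shGOT1. Each line was profiled without dox and after 5 days with dox, with 3 libraries per group and 12 in all. The dose was 1 µM/mL in the labels and 1 µg/mL in the methods of the study. All 12 libraries came from cells with the GOT1 hairpin, so an effect of dox itself and the loss of GOT1 cannot be told apart here, and which GOT1 hairpin was used is not given in the sources used here. The sources do not say that the 3 libraries of a group came from separate cultures, so p-values measure the spread between these libraries, which may be technical.

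Lysosomal hydrolases are made in the endoplasmic reticulum and tagged in the Golgi with mannose 6-phosphate by GlcNAc-1-phosphotransferase (GNPTAB, GNPTG). The mannose 6-phosphate receptors (IGF2R, M6PR) then carry them to endosomes, and sortilin (SORT1) carries a part of the cargo by another route. In the lysosome the enzymes take apart glycans, glycosaminoglycans, sphingolipids, cholesteryl esters, proteins and nucleic acids, while membrane proteins shield the organelle and move the products out. Many of these genes are known targets of the MiT/TFE transcription factors (TFEB, TFE3, MITF, TFEC), which bind E-box sequences near the gene starts.

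The libraries held 26226537 to 43406137 expected counts. GOT1, which encodes cytosolic aspartate aminotransferase, lay at 78.3, 81.5 and 83.4 TPM without dox and at 4.51, 3.29 and 3.68 TPM with dox in Pa-Tu-8902, where TPM, a level scaled to transcript length and library, gives the share of each gene among all transcripts. In MIA PaCa-2 it lay at 44.1, 38.9 and 42.7 TPM without dox and at 1.68, 1.95 and 1.87 TPM with dox, so all 6 dox-treated libraries matched their labels. The log2 fold changes of GOT1 were -4.64 ± 0.09 and -4.76 ± 0.11 (SE). All pairs of libraries within a group differed more than sampling noise. The library that stood apart most was MIA PaCa-2 without dox, replicate 2. Against the other 2 of its group it had ratios of chi-square to degrees of freedom of 25.5 and 27.3 over genes. The other pairs within a group had ratios from 2.25 to 20.6, the highest between replicates 1 and 2 of dox-treated Pa-Tu-8902. The keratins KRT8, KRT18 and KRT19 were expressed in both lines, whereas KRT7, EPCAM and CDH1 were expressed in Pa-Tu-8902 but did not exceed 1.26, 0.36 and 0.22 TPM in any MIA PaCa-2 library. Of the 6 fibroblast markers, COL3A1, DCN and LUM were at or near 0 in every library, COL1A1 lay at 3.43 to 6.31 TPM without and 17.5 to 21.2 TPM with dox in Pa-Tu-8902, and COL1A2 at 192 to 248 TPM without and 340 to 398 TPM with dox in MIA PaCa-2. The leukocyte genes PTPRC, CD3E and CSF1R stayed at or below 0.18 TPM in all 12 libraries, and CD14 reached 4.06 TPM. The 3 endothelial markers summed to at most 1.14 TPM. The part of cells other than the tumour lines in the results was not tested. These are bulk samples, in which fewer cells of a kind and less RNA per cell cannot be told apart.

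In Pa-Tu-8902 more of the lysosomal genes rose than fell with dox, and the lipid hydrolases held the largest share of genes that rose. A gene was called changed when edgeR's quasi-likelihood test gave a Benjamini-Hochberg adjusted p below 0.01 over all genes tested and the fold was at least 1.5. By this rule 17 of the 44 members changed, 16 higher and 1 lower, where 16.3% of the 14949 genes tested in this line were called (9.22% higher and 7.12% lower). The members that rose were NEU1, NAGLU and GAA among the glycosidases, GALNS and SGSH among the sulfatases, GALC, SMPD1, PSAP, LIPA, PLA2G15 and ASAH1 among the lipid hydrolases, the protease TPP1, the membrane proteins SLC17A5, HGSNAT and CLN3, and the receptor IGF2R, and the sulfatase IDS fell. The median log2 fold change of the 44 members was 0.34, with 35 above 0 and 9 below, against a median of 0.0014 over all genes tested, 50.2% of which were above 0. Without a limit on the fold, 28 members passed the adjusted p of 0.01, 25 higher and 3 lower, where 38.1% of all genes tested did (19.0% higher and 19.1% lower). The untreated and dox-treated libraries did not overlap in TPM for 35 of the 44, where they did not for 52.4% of all genes tested.

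In MIA PaCa-2 the members that passed both thresholds had all fallen: the glycosidases FUCA1, MANBA and GLB1, the acid lipase LIPA and the protease LGMN. These were 5 of 44, or 11.4%, close to the share of all genes. Of the 14589 genes tested, 1751, or 12%, were called (4.36% higher and 7.64% lower). None of the 44 rose past both thresholds in edgeR's quasi-likelihood test, and DESeq2 called 1, PLA2G15, higher. At an unadjusted p under 0.05 in edgeR's test, 15 members were higher and 16 lower. Over all genes that unadjusted p was met by 7236 of the 14589 tested in this line and 8466 of the 14949 in Pa-Tu-8902. These numbers, in either direction, are the background of the unadjusted counts given below for groups of members and other lists. The median log2 fold change was -0.08, with 20 members above 0 and 24 below, against -0.0089 over all genes tested, 49.1% of which were above 0. Without a limit on the fold, 20 members passed the adjusted p of 0.01, 8 higher and 12 lower, where 27.2% of all genes tested did (12.6% higher and 14.7% lower). The TPM of the groups did not overlap for 24 of the 44, where it did not for 43.8% of all genes tested. Leaving out the library that stood apart gave 7 members, all lower, with GM2A and SCARB2 added to the 5. Leaving out replicate 1 or replicate 3 of the dox-treated MIA PaCa-2 libraries gave 8, of which PLA2G15 was higher and 7 were lower.

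**Figure D1:**
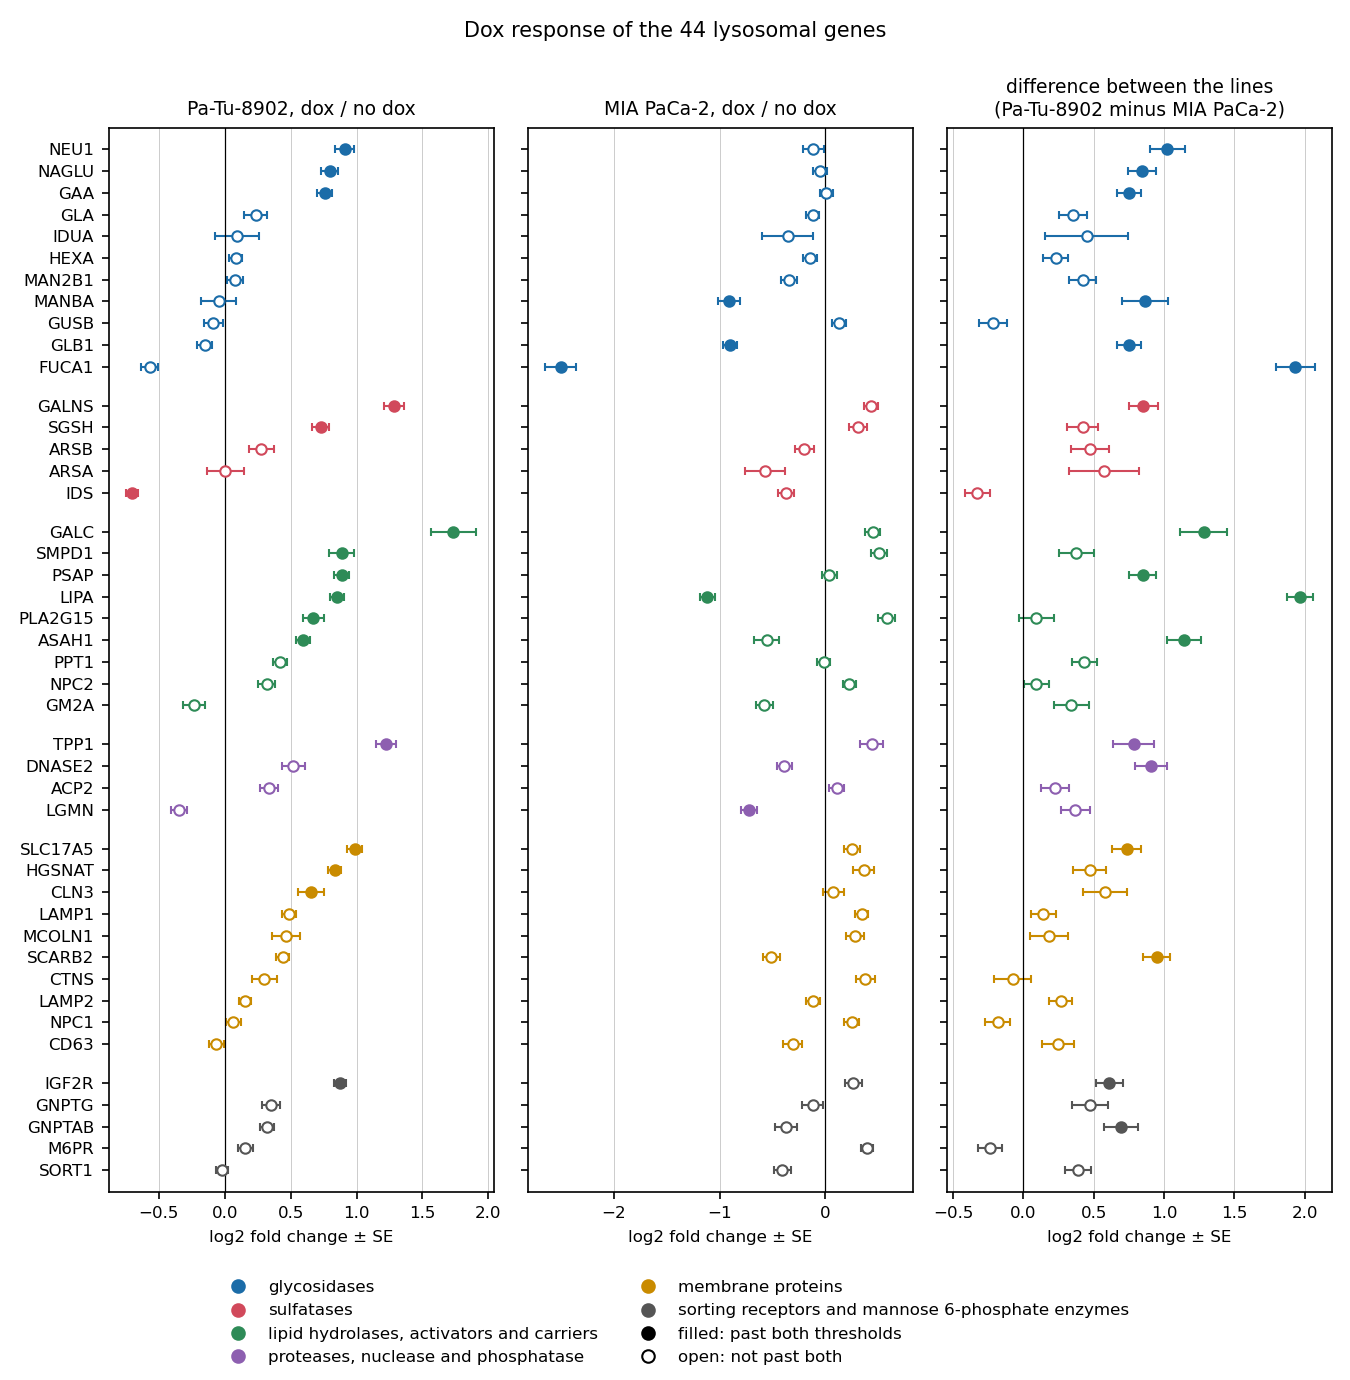
Log2 fold change (± SE, x axis) of each of the 44 members (y axis, ordered by function and then by the change in Pa-Tu-8902) with dox for Pa-Tu-8902 (left) and for MIA PaCa-2 (middle), and the difference between these responses (right); the x axes have different ranges. Filled points passed both thresholds: 17 members on the left, 5 in the middle and 17 on the right, the last all to the right of 0.

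Because several of the members that rose in Pa-Tu-8902 are described as targets of factors that bind the E-box CACGTG, the sequences around gene starts were searched for it. RefSeq windows on GRCh38.p14, from 250 bases before to 50 bases after an annotated start, were available for 34 of the 44 members, and a gene with several starts has several windows. Both strands were searched for the 6 letters CACGTG, which read the same on either strand, and for the 7 letters TCACGTG, which read CACGTGA on the other strand and contain the first motif. Of the 34 members, 11 (32.4%) held CACGTG in at least 1 window and 10 (29.4%) held TCACGTG, against 8.77% and 4.49% of all 27305 genes in the table and against 12.7% and 7.20% of the 10290 genes in it that were tested in Pa-Tu-8902. HEXA, MANBA, NAGLU, ARSA, SGSH, ASAH1, PSAP, LGMN, LAMP2 and HGSNAT had no window to search. The 34 members had 54 windows and the 27305 genes 35116, and a gene with more windows has more sequence to match. These shares describe which genes were chosen as members and not their response to dox. Among the members with a window, 5 of the 11 called higher in Pa-Tu-8902 held CACGTG, and so did 6 of the 23 not called higher. The 5 called higher are shown first with 1 match each. LAMP1 and MCOLN1 follow as members that hold the motif but did not pass both thresholds. Each run is 30 bases, 5′ to 3′ on the strand of the gene, with the 6-base motif in capitals.
GALNS, chr16:88857104-88857133, minus strand: caggcaccgcgtCACGTGacccgccgctgg
IGF2R, chr6:159968938-159968967, plus strand: gcgcgctgcgctCACGTGacccgggcctgg
GAA, chr17:80101538-80101567, plus strand: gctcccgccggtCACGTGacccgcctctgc
NEU1, chr6:31862930-31862959, minus strand: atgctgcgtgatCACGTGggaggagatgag
CLN3, chr16:28492087-28492116, minus strand: aaaacctctgagCACGTGatgggggaacac
LAMP1, chr13:113297199-113297228, plus strand: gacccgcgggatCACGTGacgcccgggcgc
MCOLN1, chr19:7522598-7522627, plus strand: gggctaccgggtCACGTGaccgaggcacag
In GALNS, IGF2R and GAA the motif shown had a T before it and an A after it, which makes the 7-base match on both strands, and its first base lay 174, 132 and 31 bases before the start. The matches shown for LAMP1 and MCOLN1 had the same flanking bases and began 28 and 14 bases before the start. Both genes were higher with dox in Pa-Tu-8902 but under the fold limit, at log2 fold changes of 0.485 and 0.465. LAMP1 held 6 matches in its window, IGF2R 3, and GALNS, GAA, CLN3 and MCOLN1 2 each, whereas NEU1 held 1. The remaining members with a match were ARSB, M6PR, GNPTG and CD63, none of which passed both thresholds in Pa-Tu-8902. A match describes the letters in these windows and does not show that a factor binds there.

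Of the 11 glycosidases, 3 rose and none fell in Pa-Tu-8902, and 3 fell and none rose in MIA PaCa-2. Of all genes tested 9.22% rose and 7.12% fell in the first line, and 4.36% rose and 7.64% fell in the second. These shares are the background of the counts for each functional group below. In edgeR's test the glycosidases with an unadjusted p under 0.05 were 4 higher and 2 lower in Pa-Tu-8902 and 0 higher and 4 lower in MIA PaCa-2, and DESeq2 called the same numbers as edgeR, 3 higher in the first line and 3 lower in the second. NEU1, the lysosomal sialidase that removes terminal sialic acids, lay at 22.8, 23.7 and 25.9 TPM without dox and at 50.5, 45.7 and 48.0 TPM with dox in Pa-Tu-8902. Levels in MIA PaCa-2 were 9.71, 10.1 and 11.96 TPM without and 10.1, 9.66 and 10.7 TPM with dox. The groups were apart in Pa-Tu-8902 and overlapped in MIA PaCa-2. Its log2 fold change, computed from the counts as for all genes below, was 0.91 ± 0.07 (SE; adjusted p = 2.26e-06) in Pa-Tu-8902 and -0.11 ± 0.10 (adjusted p = 0.385) in MIA PaCa-2.

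NAGLU, the alpha-N-acetylglucosaminidase of heparan sulfate breakdown, rose in Pa-Tu-8902 from 15.5, 17.2 and 15.6 TPM to 28.2, 26.4 and 29.96 TPM, a log2 fold change of 0.79 ± 0.07 (adjusted p = 3.79e-06). GAA, the acid alpha-glucosidase that degrades glycogen, rose there from 21.4, 20.2 and 17.3 TPM to 33.5, 28.3 and 34.5 TPM, a log2 fold change of 0.76 ± 0.06 (adjusted p = 2.50e-06). Every dox-treated Pa-Tu-8902 library lay above every untreated one for both genes. In MIA PaCa-2 NAGLU lay between 19.8 and 22.5 TPM without and between 20.1 and 22.0 TPM with dox. GAA lay there between 38.6 and 52.3 TPM without and between 45.4 and 46.4 TPM with dox, so that for both genes the groups overlapped.

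FUCA1, the alpha-L-fucosidase that removes fucose from glycoproteins, showed, in MIA PaCa-2, the most negative log2 fold change of any member in the dox comparisons. The gene (ENSG00000179163.11) lies on the minus strand at chr1:23845077-23868290 of GRCh38 in GENCODE v44, the annotation used for all positions of whole genes. In MIA PaCa-2 it lay at 5.08, 4.49 and 4.76 TPM without dox and at 0.84, 0.90 and 0.87 TPM with dox, 5.67-fold lower by the counts (log2 -2.50 ± 0.14, adjusted p = 3.18e-07). In Pa-Tu-8902 it lay at 18.4, 18.8 and 18.6 TPM without and 13.2, 12.8 and 13.6 TPM with dox, and its log2 fold change of -0.57 ± 0.06 (adjusted p = 3.00e-05) was short of the fold limit. The untreated and dox-treated libraries were apart in both lines. Without replicate 1 of the untreated Pa-Tu-8902 libraries the change was -0.59 and passed both thresholds.

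GLB1, the acid beta-galactosidase of GM1 ganglioside and keratan sulfate, lay at 38.1, 23.9 and 31.1 TPM without dox and at 17.2, 14.7 and 17.0 TPM with dox in MIA PaCa-2, a log2 fold change of -0.91 ± 0.07 (adjusted p = 1.84e-06). In Pa-Tu-8902 it lay at 32.8 to 33.9 TPM without and 29.4 to 33.7 TPM with dox, with overlapping groups. MANBA, the lysosomal beta-mannosidase, lay at 4.03, 3.44 and 4.59 TPM without and 2.13, 2.26 and 1.98 TPM with dox in MIA PaCa-2, a log2 fold change of -0.91 ± 0.10 (adjusted p = 4.51e-05). In Pa-Tu-8902 the MANBA groups overlapped, at 1.90 to 2.55 TPM without and 1.91 to 2.59 TPM with dox. Replicate 2 was the lowest of the 3 untreated MIA PaCa-2 libraries for both genes, and without it the log2 fold changes in that line were -0.94 for GLB1 and -0.96 for MANBA.

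The other 5 glycosidases passed both thresholds in neither line. They were GLA, the alpha-galactosidase A of globotriaosylceramide, GUSB, the beta-glucuronidase of glycosaminoglycans, HEXA, the alpha subunit of beta-hexosaminidase, MAN2B1, the lysosomal alpha-mannosidase, and IDUA, the alpha-L-iduronidase of heparan and dermatan sulfate. Their log2 fold changes ran from -0.09 (GUSB) to 0.23 (GLA) in Pa-Tu-8902 and from -0.36 (IDUA) to 0.13 (GUSB) in MIA PaCa-2. MAN2B1 had an adjusted p of 0.00292 in MIA PaCa-2 at a log2 fold change of -0.34, under the fold limit. GUSB has pseudogenes that could take or give reads, the highest of which, GUSBP1, reached 14.7 TPM, so its values are uncertain.

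**Figure D2:**
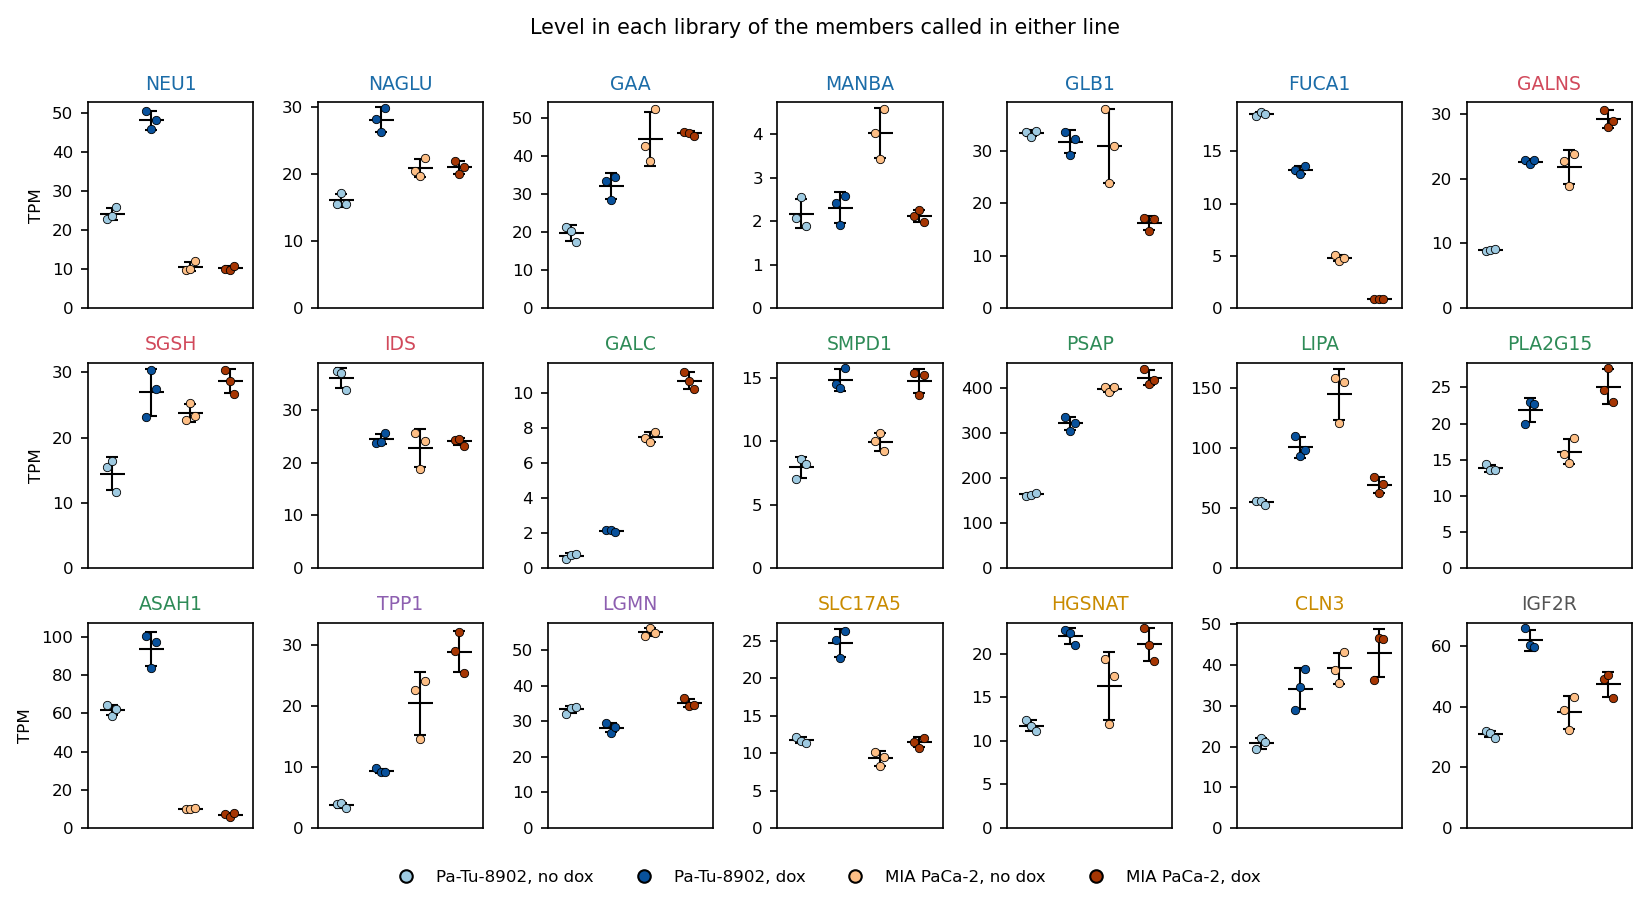
Level of the 21 members called in either line, in TPM (y axis, from 0), in each library of the 4 groups; bars give the mean and SD of the 3 libraries and the colour of a gene name gives its function as in the plot of changes. LIPA rises in Pa-Tu-8902 and falls in MIA PaCa-2, while GALC, GALNS and TPP1 lie higher with dox in both lines, with the larger log2 fold change in Pa-Tu-8902.

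Among the 5 sulfatases, which remove sulfate from glycosaminoglycans and sulfatides, 2 rose and 1 fell in Pa-Tu-8902. None was called in either direction in MIA PaCa-2 by edgeR or by DESeq2, although 2 were higher and 3 lower there at an unadjusted p under 0.05. GALNS, the N-acetylgalactosamine-6-sulfatase of keratan and chondroitin sulfate, lay at 8.75, 8.97 and 9.16 TPM without dox and at 22.8, 22.3 and 22.9 TPM with dox in Pa-Tu-8902. Its log2 fold change of 1.29 ± 0.08 (adjusted p = 3.71e-07) was exceeded only by that of GALC among the 44. The MIA PaCa-2 levels were 22.7, 18.8 and 23.9 TPM without and 30.7, 27.9 and 28.97 TPM with dox, again without overlap, at a log2 fold change of 0.43 ± 0.07 (adjusted p = 0.000358).

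SGSH, the heparan N-sulfatase, lay at 15.5, 16.4 and 11.6 TPM without dox and at 23.2, 30.3 and 27.4 TPM with dox in Pa-Tu-8902, a log2 fold change of 0.73 ± 0.07 (adjusted p = 6.60e-06). Its groups were apart in MIA PaCa-2 too, at 22.7 to 25.3 TPM without and 26.7 to 30.4 TPM with dox, where the log2 fold change was 0.31 ± 0.08 (adjusted p = 0.0103). ARSA, the arylsulfatase A of sulfatide, had overlapping groups in Pa-Tu-8902 and MIA PaCa-2, with log2 fold changes of 0.00 ± 0.14 in the former and -0.57 ± 0.19 in MIA PaCa-2 (adjusted p = 0.979 and 0.0328). ARSB, the arylsulfatase B of dermatan and chondroitin sulfate, had log2 fold changes of 0.28 ± 0.09 and -0.20 ± 0.09 (adjusted p = 0.0310 and 0.0918), short of both thresholds.

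IDS, the iduronate-2-sulfatase of heparan and dermatan sulfate, was the one member called lower in Pa-Tu-8902. The gene (ENSG00000010404.17) lies on the minus strand at chrX:149476988-149521096. It lay there at 37.4, 37.2 and 33.9 TPM without dox and at 23.9, 24.0 and 25.7 TPM with dox, a log2 fold change of -0.70 ± 0.05 (adjusted p = 7.05e-07). In MIA PaCa-2 the gene-level TPM overlapped, at 25.7, 18.9 and 24.1 without and 24.5, 24.5 and 23.2 with dox, while the counts gave a log2 fold change of -0.37 ± 0.07 (adjusted p = 0.00198). The transcript tables differed between the groups of that line. Transcript IDS-201 made up 61.2 to 63.0% of the gene's TPM in the untreated and 40.0 to 44.3% in the dox-treated MIA PaCa-2 libraries. Transcript IDS-202 made up 21.4 to 28.1% and 39.0 to 41.1% of it. The effective length of the gene, the mean length over its transcripts weighted by their level, was 4958 to 5038 bases without and 3587 to 3864 bases with dox in MIA PaCa-2. With these lengths as offsets in the fit the log2 fold change there was 0.01 instead of -0.37.

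In Pa-Tu-8902 IDS-202 also took a larger share with dox, 26.4 to 30.3% against 15.2 to 22.7%, whereas IDS-201 overlapped at 55.1 to 60.6% against 58.8 to 64.1%. By the GENCODE v44 annotation, 75.0% of the exonic bases of IDS are shared with a gene on the same strand, ENSG00000241489, so the division of reads between these genes is uncertain.

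**Figure D3:**
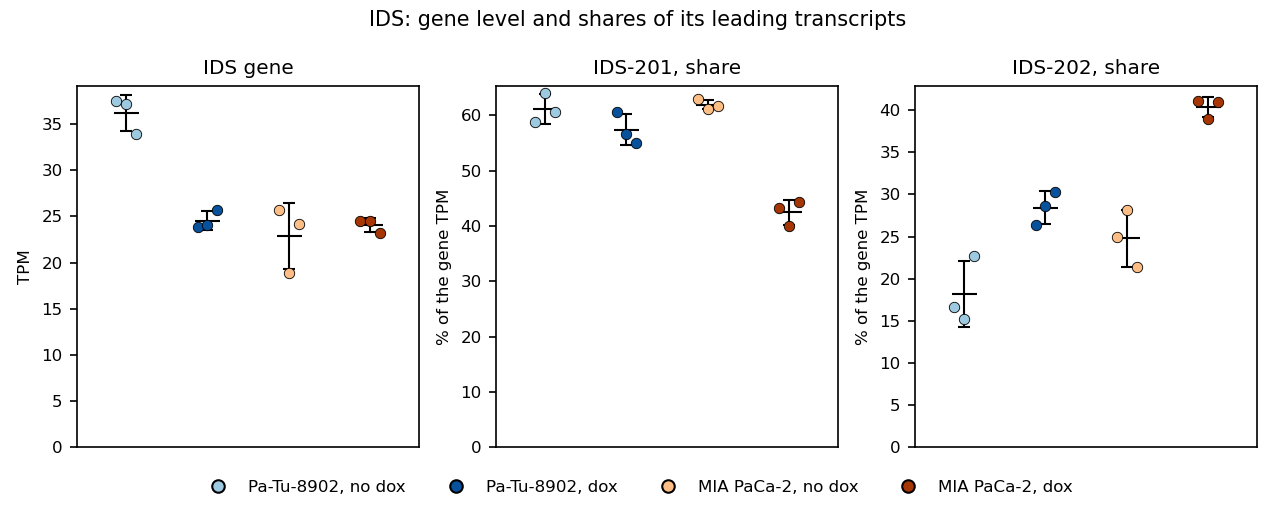
IDS in each library of the 4 groups: gene level in TPM (left) and the share of that TPM in transcripts IDS-201 (middle) and IDS-202 (right), in percent; bars give mean and SD of 3 libraries. The gene level falls in Pa-Tu-8902 and overlaps in MIA PaCa-2, while the IDS-202 share is higher with dox in both lines.

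The lipid hydrolases with their activators and carriers held the largest share of genes that rose in Pa-Tu-8902, 6 of 9, and none was called lower there. In MIA PaCa-2 1 of the 9, LIPA, was called lower and none higher by edgeR, with 4 higher and 3 lower at an unadjusted p under 0.05 and 1 higher by DESeq2. LIPA, the lysosomal acid lipase that hydrolyses cholesteryl esters and triglycerides, lay at 56.2, 55.9 and 52.8 TPM without dox and at 110.0, 93.3 and 98.8 TPM with dox in Pa-Tu-8902. The MIA PaCa-2 levels were 159, 121 and 155 TPM without and 75.8, 62.6 and 70.4 TPM with dox. The groups did not overlap in either line and the directions were opposite. The gene (ENSG00000107798.17) lies on the minus strand at chr10:89213569-89414557. Small parts of its exonic bases, 1.33% and 1.92%, overlap IFIT2 and IFIT3 on the opposite strand. The log2 fold change was 0.85 ± 0.05 (adjusted p = 5.63e-07) in Pa-Tu-8902 and -1.12 ± 0.07 (adjusted p = 6.56e-07) in MIA PaCa-2. LIPA was the 1 member called in both lines, where 4.46% of the 13109 genes tested in both were called in both and 0.687% in opposite directions.

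GALC, the galactosylceramidase of myelin lipids, had the highest log2 fold change of the members in Pa-Tu-8902, 1.73 ± 0.17 (adjusted p = 1.46e-05), from a low level. The gene (ENSG00000054983.16) lies on the minus strand at chr14:87837820-87993665. It lay there at 0.53, 0.74 and 0.80 TPM without dox and at 2.17, 2.17 and 2.07 TPM with dox. The gene lay in MIA PaCa-2 at 7.43, 7.21 and 7.79 TPM without and 11.2, 10.7 and 10.2 TPM with dox, a log2 fold change of 0.45 ± 0.07 (adjusted p = 0.000422) that was under the fold limit although the groups were apart. Even with dox, GALC in Pa-Tu-8902 stayed below its untreated level in MIA PaCa-2.

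PSAP, the precursor of the saposins that activate sphingolipid hydrolases, was the most highly expressed lipid gene in both lines. In Pa-Tu-8902 it rose from 161, 163 and 168 TPM to 336, 305 and 323 TPM, a log2 fold change of 0.89 ± 0.05 (adjusted p = 4.26e-07). In MIA PaCa-2 it lay at 403, 390 and 402 TPM without and 442, 409 and 418 TPM with dox, and the counts gave 0.04 ± 0.07 on the log2 scale (adjusted p = 0.702). The TPM groups were apart in MIA PaCa-2, whereas the normalised counts overlapped.

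SMPD1, the acid sphingomyelinase, lay at 7.05, 8.62 and 8.17 TPM without dox and at 14.5, 14.2 and 15.8 TPM with dox in Pa-Tu-8902, and at 10.1, 10.6 and 9.22 TPM without and 15.4, 13.7 and 15.2 TPM with dox in MIA PaCa-2. Its log2 fold changes were 0.89 ± 0.10 and 0.51 ± 0.08 (adjusted p = 2.47e-05 and 0.000296). PLA2G15, the lysosomal phospholipase A2, lay at 14.4, 13.5 and 13.5 TPM without and 19.99, 23.0 and 22.7 TPM with dox in Pa-Tu-8902, and at 15.8, 14.6 and 17.98 TPM without and 24.6, 27.7 and 23.0 TPM with dox in MIA PaCa-2. Every dox-treated library lay above every untreated one for both genes in both lines. PLA2G15 had log2 fold changes of 0.67 ± 0.08 in Pa-Tu-8902 (adjusted p = 4.91e-05) and 0.58 ± 0.08 in MIA PaCa-2 (adjusted p = 0.000238), the latter just under the limit of 0.585 on the log2 scale. With DESeq2 the MIA PaCa-2 value was 0.59 and was called. It was also called without replicate 3 of the untreated or replicate 1 or 3 of the dox-treated MIA PaCa-2 libraries, at 0.63, 0.59 and 0.62.

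ASAH1, the acid ceramidase, lay at 64.1, 58.6 and 62.4 TPM without dox and at 100.5, 83.5 and 97.1 TPM with dox in Pa-Tu-8902, and at 10.0, 9.79 and 10.4 TPM without and 7.50, 5.88 and 7.60 TPM with dox in MIA PaCa-2. The groups were apart in both lines, in opposite directions. The log2 fold change of 0.59 ± 0.05 in Pa-Tu-8902 (adjusted p = 7.34e-06) was just past the fold limit and the one of -0.55 ± 0.12 in MIA PaCa-2 (adjusted p = 0.00343) just short of it. Without replicate 2 of the untreated Pa-Tu-8902 libraries the former was 0.56 and was no longer called, and neither was it with effective lengths as offsets, at 0.53. The latter was called with those offsets, at -0.59 (adjusted p = 0.00846), and without replicate 3 of the untreated or replicate 1 or 3 of the dox-treated MIA PaCa-2 libraries, at -0.61, -0.62 and -0.64.

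The other lipid genes passed both thresholds in neither line. PPT1, the palmitoyl-protein thioesterase, had log2 fold changes of 0.42 ± 0.06 in Pa-Tu-8902 (adjusted p = 0.000113) and -0.02 ± 0.06 in MIA PaCa-2 (adjusted p = 0.861). NPC2, the soluble cholesterol carrier, had values of 0.32 ± 0.06 and 0.23 ± 0.06 on the same scale (adjusted p = 0.00184 and 0.0106). GM2A, the GM2 ganglioside activator, had values of -0.23 ± 0.08 and -0.57 ± 0.08 (adjusted p = 0.0314 and 0.000240). GM2A in MIA PaCa-2 passed the fold limit when replicate 2 of the untreated or replicate 1 or 3 of the dox-treated libraries was left out, at -0.66, -0.60 and -0.59. With all libraries kept and no filter on low counts it passed the limit too, at -0.587.

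Of the remaining 4 hydrolases, TPP1 rose in Pa-Tu-8902 and LGMN fell in MIA PaCa-2. TPP1, a tripeptidyl peptidase, lay at 3.90, 4.02 and 3.27 TPM without dox and at 9.81, 9.15 and 9.25 TPM with dox in Pa-Tu-8902, a log2 fold change of 1.22 ± 0.08 (adjusted p = 5.97e-07). Levels in MIA PaCa-2 were 22.6, 14.6 and 24.2 TPM without and 29.02, 32.2 and 25.5 TPM with dox, 0.44 ± 0.11 on the log2 scale (adjusted p = 0.00804). The groups were apart in both lines, and without the untreated MIA PaCa-2 replicate 2 the latter change was 0.30.

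LGMN, an asparaginyl endopeptidase that matures cathepsins, lay at 54.1, 56.4 and 54.8 TPM without dox and at 36.6, 34.4 and 34.8 TPM with dox in MIA PaCa-2, a log2 fold change of -0.72 ± 0.08 (adjusted p = 2.59e-05). In Pa-Tu-8902 it lay at 32.2, 33.8 and 34.2 TPM without and 29.4, 26.8 and 28.6 TPM with dox, -0.35 ± 0.06 on the log2 scale (adjusted p = 0.000602), so that it lay lower with dox in both lines. DNASE2, the acid DNase, lay at 22.1, 21.2 and 25.2 TPM without and 35.4, 33.4 and 36.1 TPM with dox in Pa-Tu-8902, and at 28.5, 25.6 and 28.5 TPM without and 22.8, 20.6 and 22.1 TPM with dox in MIA PaCa-2. It lay higher with dox in one line and lower in the other, without overlap, and neither change passed the fold limit, at 0.52 ± 0.09 (adjusted p = 0.000450) and -0.39 ± 0.07 (adjusted p = 0.000974). Without replicate 3 of the untreated Pa-Tu-8902 libraries the former was 0.64 and was called. ACP2, the lysosomal acid phosphatase, had log2 fold changes of 0.33 ± 0.07 and 0.11 ± 0.07 (adjusted p = 0.00185 and 0.243).

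Among the 10 membrane proteins, 3 rose and none fell in Pa-Tu-8902, by edgeR and by DESeq2, with 8 higher and 0 lower at an unadjusted p under 0.05. In MIA PaCa-2 none was called by edgeR or DESeq2, with 6 higher and 2 lower at an unadjusted p under 0.05. SLC17A5, sialin, the exporter of sialic acid, lay at 12.2, 11.7 and 11.4 TPM without dox and at 25.0, 22.7 and 26.3 TPM with dox in Pa-Tu-8902, a log2 fold change of 0.99 ± 0.06 (adjusted p = 3.88e-07). HGSNAT, the acetyltransferase of heparan sulfate breakdown that spans the membrane, lay at 12.5, 11.8 and 11.1 TPM without and 22.8, 22.4 and 21.1 TPM with dox, a log2 fold change of 0.83 ± 0.05 (adjusted p = 3.32e-07). CLN3, a membrane protein altered in juvenile Batten disease, lay at 19.4, 22.0 and 21.1 TPM without and 29.01, 34.5 and 39.1 TPM with dox, a log2 fold change of 0.66 ± 0.10 (adjusted p = 0.000277).

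The dox-treated Pa-Tu-8902 libraries lay above the untreated ones for all 3 of these genes. The call for CLN3 rested on replicate 1 of the untreated Pa-Tu-8902 libraries, without which the log2 fold change was 0.57, and 25.3% of its exonic bases are shared with another annotated gene on the same strand, ENSG00000261832. In MIA PaCa-2 SLC17A5 lay at 8.21 to 10.1 TPM without and 10.7 to 12.1 TPM with dox, and its groups were apart. HGSNAT lay there at 11.95 to 19.4 TPM without and 19.2 to 23.0 TPM with dox, and CLN3 at 35.7 to 43.1 TPM without and 36.3 to 46.7 TPM with dox, and for both the groups overlapped.

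SCARB2, the receptor LIMP-2 that carries glucocerebrosidase to the lysosome, lay at 27.2, 26.7 and 25.4 TPM without dox and at 39.5, 35.0 and 39.4 TPM with dox in Pa-Tu-8902, and at 33.0, 22.7 and 30.6 TPM without and 20.7, 20.6 and 20.7 TPM with dox in MIA PaCa-2. As for DNASE2, it lay higher in one line and lower in the other without overlap. The log2 fold changes were 0.44 ± 0.05 (adjusted p = 3.45e-05) and -0.51 ± 0.08 (adjusted p = 0.000343), under the fold limit in both lines. Without the untreated MIA PaCa-2 replicate 2 the latter was -0.59 and was called.

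The abundant membrane glycoproteins LAMP1 and LAMP2 were called in neither line. LAMP1 lay at 178 to 184 TPM without and 256 to 275 TPM with dox in Pa-Tu-8902 (log2 0.49 ± 0.05, adjusted p = 2.93e-05) and at 86.6 to 108 TPM without and 121 to 136 TPM with dox in MIA PaCa-2 (log2 0.34 ± 0.06, adjusted p = 0.00116). LAMP2 had log2 fold changes of 0.15 ± 0.05 and -0.11 ± 0.06 (adjusted p = 0.0223 and 0.172), and its leading transcript was LAMP2-201 without and LAMP2-202 with dox in both lines. In MIA PaCa-2 the LAMP2-201 share was 50.6 to 55.3% without and 41.2 to 45.6% with dox. That share was 49.65 to 51.7% without and 44.85 to 49.2% with dox in the Pa-Tu-8902 libraries, whose LAMP2-202 share overlapped, at 45.8 to 48.0% and 45.2 to 51.8%. The tetraspanin CD63, the most highly expressed of the 44 genes in untreated cells of both lines, lay at 873 to 909 TPM without and 845 to 904 TPM with dox in Pa-Tu-8902 and at 436 to 489 TPM without and 367 to 395 TPM with dox in MIA PaCa-2.

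The other 3 membrane proteins are a channel and 2 transporters. MCOLN1, the lysosomal calcium channel, had log2 fold changes of 0.47 ± 0.11 and 0.28 ± 0.08 (adjusted p = 0.00386 and 0.0181). CTNS, the cystine exporter, had values of 0.30 ± 0.09 and 0.38 ± 0.09 (adjusted p = 0.0197 and 0.00560). NPC1, the cholesterol transporter that takes its cargo from NPC2, had values of 0.07 ± 0.06 and 0.25 ± 0.07 (adjusted p = 0.352 and 0.0130). All 3 had positive log2 fold changes in both lines and none passed the fold limit.

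Of the 5 sorting genes, IGF2R alone was called in Pa-Tu-8902, and none in MIA PaCa-2 by edgeR or DESeq2, with 2 higher and 2 lower there at an unadjusted p under 0.05. IGF2R, the cation-independent mannose 6-phosphate receptor, lay at 31.9, 31.4 and 29.9 TPM without dox and at 66.0, 60.3 and 59.8 TPM with dox in Pa-Tu-8902. Its adjusted p of 1.32e-07 in that line was the smallest of the 44 members, at a log2 fold change of 0.87 ± 0.04. The MIA PaCa-2 levels were 38.8, 32.4 and 43.3 TPM without and 49.1, 50.4 and 42.8 TPM with dox, with overlap, at 0.27 ± 0.08 (adjusted p = 0.0181).

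M6PR, the smaller cation-dependent receptor, was expressed at a higher TPM than IGF2R in all 12 libraries. It lay at 340 to 367 TPM without and 408 to 442 TPM with dox in Pa-Tu-8902 (log2 0.16 ± 0.06, adjusted p = 0.0351) and at 163 to 182 TPM without and 222 to 236 TPM with dox in MIA PaCa-2 (log2 0.39 ± 0.06, adjusted p = 0.000300). By the v44 annotation 30.9% of its exonic bases overlap PHC1 on the opposite strand. The libraries were strand-specific, but the counting is not stated to have used strand. GNPTAB, which encodes the catalytic subunits of the phosphotransferase, lay at 12.3, 12.3 and 11.2 TPM without and 15.1, 14.8 and 16.1 TPM with dox in Pa-Tu-8902, and at 8.71, 5.70 and 7.27 TPM without and 5.89, 6.0 and 6.4 TPM with dox in MIA PaCa-2. Its log2 fold changes were 0.32 ± 0.05 (adjusted p = 0.000421) and -0.37 ± 0.10 (adjusted p = 0.0142), with TPM groups apart in Pa-Tu-8902 and overlapping in MIA PaCa-2.

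GNPTG, the subunit of the phosphotransferase that helps it to recognise hydrolases, had log2 fold changes of 0.35 ± 0.07 and -0.12 ± 0.10 (adjusted p = 0.00127 and 0.368), and 44.3% of its exonic bases overlap UNKL on the opposite strand. SORT1 had values of -0.02 ± 0.05 and -0.41 ± 0.08 (adjusted p = 0.751 and 0.00169).

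Whether the response to dox differed between the lines was tested with an interaction term, in which all 12 libraries were fitted together. By the thresholds used above, 17 of the 44 members differed, all with the larger log2 fold change in Pa-Tu-8902, where 10.4% of the 16544 genes tested differed (6.56% in that direction and 3.86% in the other). The difference was above 0 for 39 of the 44, and its median over the members was 0.46 on the log2 scale, against -0.0015 over all genes tested. In the opposite direction 0 members differed by edgeR and 0 by DESeq2, although 3 had an unadjusted p under 0.05 in that direction and 1, IDS, differed when effective lengths were used as offsets in edgeR, at -0.64 ± 0.10 (adjusted p = 0.000292). The 17 were 10 members called in Pa-Tu-8902 alone, 3 called in MIA PaCa-2 alone, LIPA called in both, and DNASE2, GNPTAB and SCARB2 called in neither. With the untreated MIA PaCa-2 replicate 2 left out, 18 differed, HGSNAT being added. By DESeq2 18 differed, all with the larger value in Pa-Tu-8902, and 3 of these were membrane proteins where edgeR called 2. Every other alternative that kept all 12 libraries also gave 18. Of the 16544 genes tested, 6078 had an unadjusted p under 0.05 for the difference in edgeR's test, in either direction.

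The differences of the log2 fold changes were largest for LIPA, at 1.97 ± 0.10 (adjusted p = 2.98e-10), and FUCA1, at 1.93 ± 0.14 (adjusted p = 2.45e-08). For LIPA the difference came from opposite changes and for FUCA1 from a more negative log2 fold change in MIA PaCa-2. GALC and GALNS, which lay higher with dox in both lines, differed by 1.28 ± 0.17 (adjusted p = 1.79e-05) and 0.85 ± 0.10 (adjusted p = 8.79e-06), and TPP1 by 0.78 ± 0.15 (adjusted p = 0.000657). ASAH1, SCARB2, DNASE2 and GNPTAB, whose log2 fold changes had opposite signs in the lines, differed by 1.14 ± 0.12, 0.95 ± 0.10, 0.91 ± 0.12 and 0.69 ± 0.12 (adjusted p = 2.38e-06, 1.21e-06, 1.61e-05 and 0.000336).

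NEU1, PSAP, NAGLU, GAA and SLC17A5, called higher in Pa-Tu-8902, differed between the lines by 1.02 ± 0.13, 0.85 ± 0.10, 0.84 ± 0.10, 0.75 ± 0.09 and 0.73 ± 0.10 (adjusted p = 1.03e-05, 4.45e-06, 7.36e-06, 4.49e-06 and 4.32e-05). MANBA and GLB1, called lower in MIA PaCa-2, differed by 0.86 ± 0.17 and 0.75 ± 0.09 (adjusted p = 0.000803 and 6.05e-06). IGF2R differed by 0.61 ± 0.10 (adjusted p = 0.000125), and this call was lost without replicate 3 of the untreated or replicate 3 of the dox-treated MIA PaCa-2 libraries, at 0.57 in both cases. In edgeR's main fits CLN3, HGSNAT, IDS, PLA2G15, SGSH and SMPD1 were called in Pa-Tu-8902 but not in the difference. For IDS this rested on the lengths, since its difference was -0.33 with the counts alone and -0.64, and called, with effective lengths as offsets, where its log2 fold changes were -0.63 in Pa-Tu-8902 and 0.01 in the other line. The smallest of their differences in size was that of PLA2G15, 0.09 ± 0.12 (adjusted p = 0.640).

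**Figure D4:**
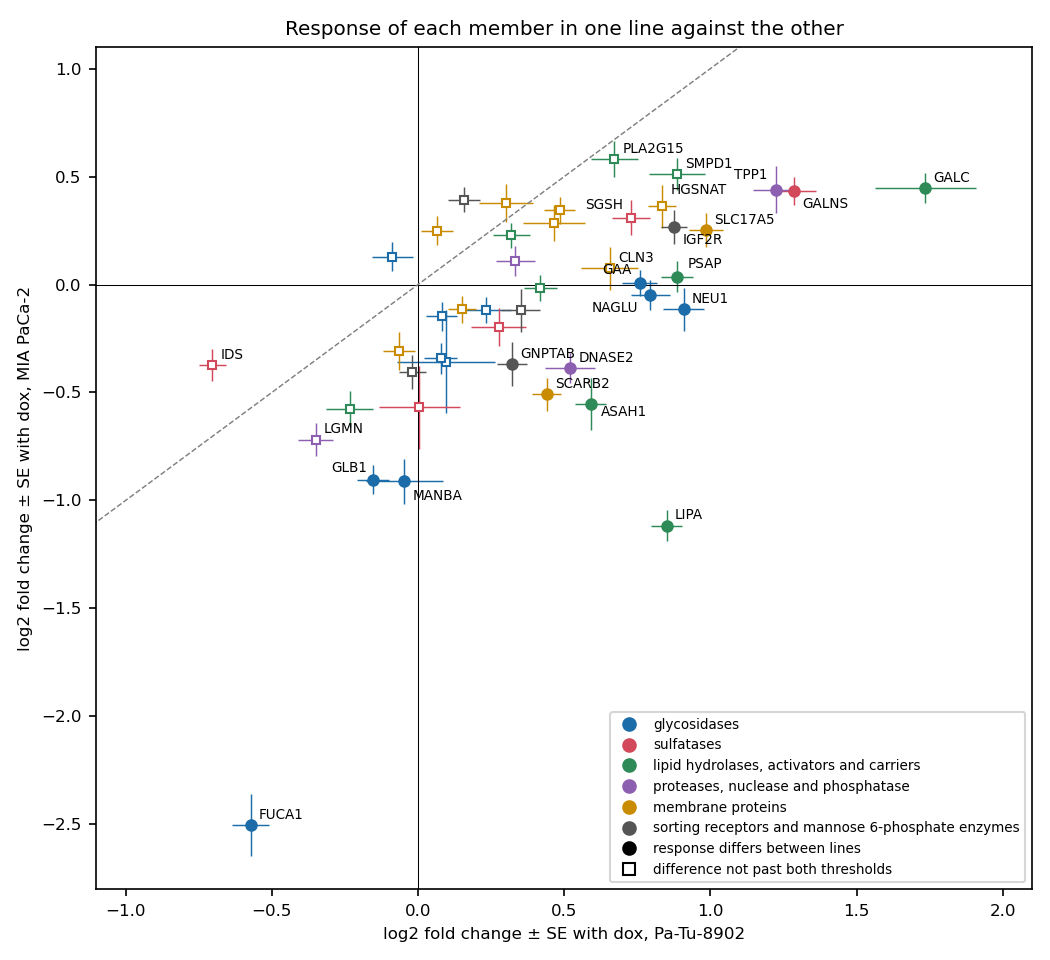
Log2 fold change with dox (± SE) of each member in Pa-Tu-8902 (x axis) and MIA PaCa-2 (y axis), coloured by function; the dashed line marks equal change. Filled circles are the 17 members whose response differed between the lines, all below the dashed line, and 39 of the 44 members lie below it.

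Untreated cells of the lines differed in the levels of most hydrolases, as they did for most genes. Of the 44 members, 24 differed between untreated Pa-Tu-8902 and untreated MIA PaCa-2, 9 higher and 15 lower in Pa-Tu-8902, where 57.5% of the genes tested differed, so the members' share of 54.5% was close to that of all genes. By direction 29.4% of all genes were higher and 28.2% lower. The TPM of the untreated groups did not overlap for 37 of the 44, where it did not for 75.1% of all genes. This comparison uses the same untreated libraries as the dox comparisons. Mean levels of the members ran from 0.690 TPM (GALC) to 895 TPM (CD63) in untreated Pa-Tu-8902, with a median of 19.4 TPM, and from 3.03 TPM (IDUA) to 455 TPM (CD63) in untreated MIA PaCa-2, with a median of 21.4 TPM. When the members were ordered by mean TPM, 23 of the 43 pairs of neighbours overlapped in untreated Pa-Tu-8902 and 33 of 43 in untreated MIA PaCa-2.

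The widest gaps were those of GALC, which was 11.2-fold lower in untreated Pa-Tu-8902 (log2 -3.48 ± 0.12, adjusted p = 2.02e-14), ASAH1, 6.68-fold higher (log2 2.74 ± 0.09, adjusted p = 2.94e-15), GLA, 5.85-fold lower (log2 -2.55 ± 0.07, adjusted p = 8.61e-16), and TPP1, 5.85-fold lower (log2 -2.55 ± 0.11, adjusted p = 3.11e-13). FUCA1 and NEU1 were 3.82-fold and 2.23-fold higher in untreated Pa-Tu-8902. LIPA, PSAP, GAA and GALNS were 2.73-fold, 2.498-fold, 2.57-fold and 2.49-fold lower there. Among the sorting genes M6PR, GNPTAB and SORT1 were higher in Pa-Tu-8902, by 1.97-fold, 1.53-fold and 2.23-fold, and GNPTG was 1.86-fold lower.

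**Figure D5:**
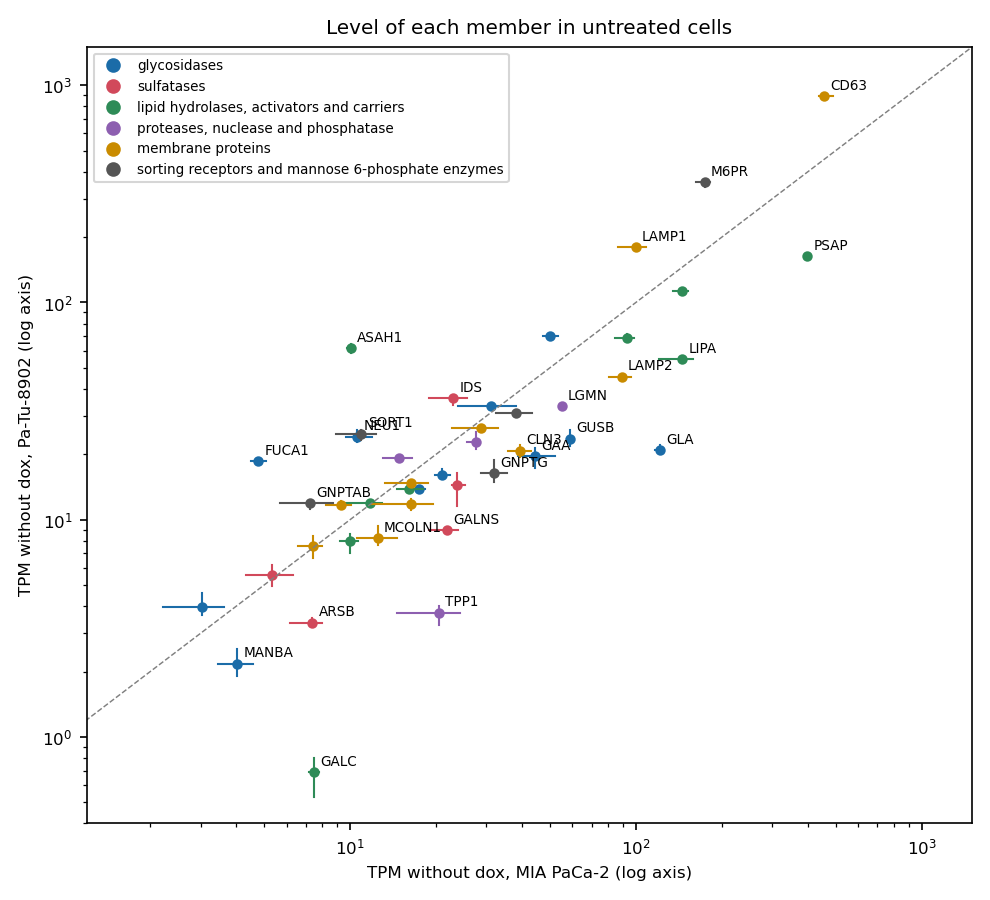
Mean level of each member without dox in MIA PaCa-2 (x axis, TPM) and Pa-Tu-8902 (y axis, TPM), both on log axes; lines span the lowest and highest of 3 libraries and the dashed line marks equal levels. The 24 members that differed between the lines are named, with CD63 highest in both and GALC and ASAH1 farthest from the dashed line.

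The 44 members together made up 2534 to 2574 TPM in untreated and 3171 to 3243 TPM in dox-treated Pa-Tu-8902, a ratio of 1.25. In MIA PaCa-2 the sum was 2323 to 2497 TPM without and 2407 to 2507 TPM with dox, a ratio of 1.00, so that the groups were apart in the first line and overlapped in the second. CD63 was the largest single term of the sum in every untreated library, and without it the ratio was 1.40 in that line and 1.04 in MIA PaCa-2. The lipid group lay at 492 to 502 TPM without and 766 to 843 TPM with dox in Pa-Tu-8902 and at 782 to 869 TPM without and 816 to 880 TPM with dox in MIA PaCa-2. The sum of the 5 sorting genes was higher after treatment in each line. For Pa-Tu-8902 it was 419 to 454 TPM untreated and 540 to 564 TPM treated. For MIA PaCa-2 it was 245 to 272 TPM untreated and 307 to 331 TPM treated. M6PR was the largest term, at a mean of 174 TPM untreated and 229 TPM treated in MIA PaCa-2. In that line 3 of the 5 genes had negative log2 fold changes, the median was -0.12 and none was called.

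Other genes of the lysosomal system, listed from general knowledge, were counted in the same fits. Of all genes tested 9.22% rose and 7.12% fell in Pa-Tu-8902, and 4.36% rose and 7.64% fell in MIA PaCa-2, which is the background of the counts that follow. Of 11 cathepsins tested in Pa-Tu-8902, 4 rose and 1 fell, and of 10 tested in MIA PaCa-2, 1 fell, so that in the latter line the count was near the background. Of the further soluble hydrolases, 7 of 16 rose and 1 fell in Pa-Tu-8902, and 1 of 17 fell in MIA PaCa-2, again near the background. Of the further lysosomal membrane proteins, 13 of 20 rose and 1 fell in Pa-Tu-8902. Among 19 tested in MIA PaCa-2, 5 rose, 14 were not called and 0 were called lower, where DESeq2 also called 0 lower and 1 was lower at an unadjusted p under 0.05. The nucleoside transporter SLC29A3 had the smallest p of this last list in MIA PaCa-2 and OSTM1, a subunit of the lysosomal chloride exchanger, in Pa-Tu-8902, at log2 fold changes of 0.93 ± 0.10 (adjusted p = 3.23e-05) and 1.45 ± 0.05 (adjusted p = 1.76e-08).

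Of 27 adaptor, retromer and tethering genes 2 rose in Pa-Tu-8902, and of 26 tested in MIA PaCa-2 1 fell. Of 17 subunits of the proton pump that acidifies the lysosome, 3 rose in Pa-Tu-8902, while none of the 17 was called in MIA PaCa-2 by edgeR or DESeq2, with 10 higher and 1 lower at an unadjusted p under 0.05. The calls of these 2 lists in Pa-Tu-8902 were all higher. Their shares, 7.41% and 17.6%, were below and above the 9.22% of all genes tested that were called higher there. A further 7 pump subunits passed the adjusted p of 0.01 below the fold limit in that line, 7 higher and 0 lower. Without a fold limit, 19.0% of all genes tested were higher and 19.1% lower at that adjusted p, the called ones included. Of the 17 subunits, 16 had a positive log2 fold change and 1 a negative one, where 50.2% of all genes tested were above 0. The pump subunits summed to 1221 to 1265 TPM untreated and 1599 to 1642 TPM treated. For MIA PaCa-2 these sums were 1465 to 1548 TPM and 1932 to 1987 TPM.

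Of the MiT/TFE factors, TFEB was called higher in Pa-Tu-8902. It lay at 0.83, 1.43 and 1.09 TPM without dox and at 4.15, 3.96 and 4.51 TPM with dox, a log2 fold change of 1.61 ± 0.16 (adjusted p = 1.51e-05). In MIA PaCa-2 it lay at 4.59, 4.91 and 6.23 TPM without and 5.84, 3.45 and 3.13 TPM with dox, with overlap, at -0.53 ± 0.13 (adjusted p = 0.00789). The responses differed between the lines by 2.15 ± 0.22 (adjusted p = 1.10e-06). TFE3, the most highly expressed factor, lay at 28.5 to 31.0 TPM without and 27.5 to 31.1 TPM with dox in Pa-Tu-8902, and at 27.8 to 37.6 TPM without and 41.8 to 45.0 TPM with dox in MIA PaCa-2 (log2 0.38 ± 0.06, adjusted p = 0.000548). TFEC was called higher in Pa-Tu-8902 (log2 2.20 ± 0.50, adjusted p = 0.00366) but did not exceed 0.39 TPM in any library, and MITF did not exceed 0.35 TPM. Messenger levels say nothing of where these factors are in the cell, and their part in the changes of the 44 genes was not tested.

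The leading transcript, the one with the highest mean share of a gene's TPM, was the same without and with dox for 42 of the 44 members in Pa-Tu-8902 and for 41 in MIA PaCa-2. It was another transcript for LAMP2 and MANBA in the first line and for HEXA, LAMP2 and SGSH in the second. For MANBA, a gene of low level in Pa-Tu-8902, the share of MANBA-201 ran from 0 to 76.2% among the 3 untreated libraries of that line. Of the 103 transcripts that reached a mean share of 10% in a group, 17 (16.5%) did not overlap between the untreated and dox-treated libraries of Pa-Tu-8902, where 16.4% of 35383 such transcripts of all genes tested did not. For MIA PaCa-2 it was 19 (18.4%), beside 16.2% of 35125.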

How the data were processed

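RNA-seq libraries of 12 samples (2 lines, without and with dox, 3 each) were analysed from the processed tables. Per the paper's methods and the submitters' processing notes, the authors trimmed reads with Trimmomatic 0.39, aligned them with STAR 2.5.2a and quantified genes and isoforms with RSEM 1.3.1 against GENCODE 29 on the human genome, and bcl2fastq is also named. The deposited gene tables hold RSEM expected counts, which share reads that map to several genes, and the authors' TPM and FPKM, which are scaled to length and library. The deposited effective length of each gene, in bases, and the authors' isoform TPM were also used. Other deposited isoform tables were not used here. The paper describes the libraries as strand-specific and the aligner as run with its defaults. Strand was not stated to have been used in counting, so overlapping genes may share reads.

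The 44 members and the other lists were chosen with earlier results of these data known. Expected counts (5.34% of them not whole) were rounded, and a gene was tested where 3 or more of the fitted libraries held 10 counts or more, with edgeR 4.0.16 (R 4.3.3) by glmQLFit and glmQLFTest with TMM factors. All 44 members passed this filter in both lines. Each line was fitted on its own 6 libraries, and the difference between the responses and the untreated lines on all 12. A call needed a p below 0.01 after Benjamini-Hochberg adjustment together with a fold of 1.5 or more. The SE was obtained by dividing the log2 fold change by the root of its F statistic. The code was tested on simulated data. DESeq2 1.42.0, its size factors, other filters, effective lengths, a replicate block and the omission of each library were alternatives. Tables were handled with Python 3.11.15 and pandas 2.3.3. All members are named, with values per library for those called. GOT1, the MiT/TFE factors and the gene with the smallest p of a list are also named by rule, and other genes only as markers or overlapping genes. Positions and shared exons were taken from GENCODE 44 and promoter windows from RefSeq. Libraries held 26226537 to 43406137 counts, and errors rest on the spread between libraries.

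Libraries were not paired by replicate number in the main fits, and the sources name no shared day or batch. Residuals of libraries with the same number correlated at 0.121, -0.069 and 0.130 in Pa-Tu-8902 and at 0.070, -0.093 and -0.040 in MIA PaCa-2. Those with different numbers correlated at -0.214 to 0.124 in Pa-Tu-8902 and at -0.108 to 0.134 in MIA PaCa-2. With 3 libraries per group these values cannot decide whether the numbers pair the libraries.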

Additional observations from a re-analysis of the deposited data

Results flagged for a closer look

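The response to dox differed between the lines, by the interaction contrast of edgeR's quasi-likelihood test over all 12 libraries, for 17 members. The difference of the log2 fold changes, Pa-Tu-8902 minus MIA PaCa-2, was 1.97 for LIPA, 1.93 for FUCA1, 1.28 for GALC, 1.14 for ASAH1 and 1.02 for NEU1. It was 0.95 for SCARB2, 0.91 for DNASE2, 0.86 for MANBA, 0.85 for GALNS, 0.85 for PSAP and 0.84 for NAGLU. It was 0.78 for TPP1, 0.75 for GLB1, 0.75 for GAA, 0.73 for SLC17A5, 0.69 for GNPTAB and 0.61 for IGF2R. Of these, LIPA, ASAH1, SCARB2, DNASE2 and GNPTAB had a positive log2 fold change in Pa-Tu-8902 and a negative one in MIA PaCa-2 with an adjusted p below 0.05 in each line.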

How the results depend on the processing

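Of 1450 alternative values of 105 gene results, 1405 kept their direction and their side of the thresholds, 5 lost and 16 gained a call, and 24 changed sign, the cause of which was not tested. These results were the dox changes of all 44 members in each line and the differences of only the 17 members called there. Members that gained a call in the difference, such as HGSNAT and IDS, are therefore not among the 16. Without a fold limit, by construction, more members passed, 28 (25 higher, 3 lower) in Pa-Tu-8902 and 20 (8 higher, 12 lower) in MIA PaCa-2. With DESeq2 and with its size factors in edgeR, 1 member (PLA2G15) was called higher in MIA PaCa-2. With effective lengths as offsets, 1 member (IDS) differed between the lines with the more negative value in Pa-Tu-8902. Without CD63 the ratio of summed TPM in Pa-Tu-8902 was 1.40. Leaving out each library in turn gave 16 to 18 members in Pa-Tu-8902 (15 to 17 higher, 1 to 2 lower), 5 to 8 in MIA PaCa-2 (0 to 1 higher, 5 to 7 lower), 16 to 18 in the difference and 22 to 25 between untreated lines.

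With a replicate block 17, 5, 18 and 24 members were called in Pa-Tu-8902, MIA PaCa-2, the difference and the untreated lines, and ARSA in Pa-Tu-8902 had -0.004. Apart from IDS, whose effective lengths differ between the MIA PaCa-2 groups, signs changed for members that did not pass the adjusted p. In Pa-Tu-8902 effective lengths gave 0.01 for MANBA, -0.016 for ARSA and -0.059 for NPC1, and leaving out libraries gave -0.084 to 0.071 for MANBA, -0.02 to 0.22 for IDUA, -0.121 to 0.122 for ARSA and -0.032 to 0.025 for SORT1. In MIA PaCa-2 effective lengths gave -0.014 for GAA, 0.014 for IDS and 0.017 for PPT1, no filter gave -0.002 for GAA, and leaving out libraries gave -0.022 to 0.025 for GAA, -0.004 to 0.096 for PSAP, -0.05 to 0.016 for PPT1, -0.035 to 0.174 for CLN3 and -0.221 to 0.002 for GNPTG.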
